A study of Mus musculus with 3 samples.

Results

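The proteasome genes described here are the protein-coding genes whose symbol begins with Psma, Psmb, Psmc, Psmd, Psme, Psmf or Psmg followed by a number, 50 of the 25759 genes in the files. They were chosen by name and not by their level, and 47 of them were expressed above an RPKM of 5 in at least 1 library. RPKM is the number of exon reads scaled to the exon length and to the library total, so levels of different genes can be compared per length. The 3 members under this threshold were Psma8, an alpha subunit of the testis, with 5, 0 and 6 exon reads in the libraries N, αA and PαA, Psmb11, the catalytic subunit of the thymus, with 0, 10 and 0 reads, and Psmc3ip with 112, 62 and 75 reads. Psmc3ip is a meiotic recombination factor that is no part of the proteasome and was matched by its name only. A count of 0 allows up to 3 reads.

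The proteasome is the barrel-shaped protease that degrades proteins tagged with ubiquitin. Its 20S core is built of 2 outer rings of alpha subunits and 2 inner rings of beta subunits, the 19S particle on its ends recognises, unfolds and feeds in the substrates, and the PA28 ring can take the place of the 19S particle. In the beta rings 3 subunits, Psmb5, Psmb6 and Psmb7, carry the active sites, and cells of the immune system and cells exposed to interferon-γ can build in Psmb8, Psmb9 and Psmb10 at the same positions. The resulting immunoproteasome is best known for making peptides for MHC class I, and lymphocytes carry it without infection.

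RNA was sequenced from follicular regulatory T (TFR) cells, sorted as B220-CD4+CXCR5+GITRhi Blimp-GFP+ cells from spleen and mesenteric lymph nodes (mLN) of C57BL/6J mice on day 10 after 125 µg NP-KLH in alum, with a boost on day 7. The library N comes from Nfatc1fl/fl.Prdm1gfp/+.FIC mice and is labelled NFATc1-deficient, αA comes from Nfatc1caaA.Prdm1gfp/+.FIC mice and is labelled NFATc1/αA-overexpressing, and PαA comes from Nfatc1caaA.Prdm1gfp/fl.FIC mice, which are labelled as lacking Blimp-1 in addition. FIC is a Cre recombinase made from the Foxp3 locus, so that floxed alleles are removed and the constitutively active NFATc1/αA is switched on in Foxp3-expressing cells. All 3 libraries therefore carry FIC and 1 gfp allele of Prdm1, the gene of Blimp-1, and there was no library without a Cre. There is 1 library per genotype, the number of mice behind each is not named, and the mice were male or female, so no test between genotypes was possible and no spread between mice is known. The 3 libraries hold 27637953, 24258845 and 23269443 exon reads, in the order N, αA and PαA that is kept for all values below.

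The level of Nfatc1 did not separate the labels, at 63.6 RPKM in the library labelled N and 62.9 in the one labelled αA, against 32.4 in PαA. The names N, αA and PαA are therefore used as labels, and a difference between libraries is not read as an effect of NFATc1. Prdm1 stood at 25.6, 24.9 and 10.0 RPKM. The markers Foxp3, Cxcr5, Cd4 and Cd3e were present in all 3 libraries, and the summed RPKM of 9 TFR and sort markers was 1574, 1514 and 1041. By the threshold given below, 3 of the 9 were higher and 2 lower in αA against N, against 13.7% and 17.1% of all expressed genes. In PαA against αA 0 were higher and 8 lower, against 18.2% and 19%. Cxcr5 had an RPKM of 48.3, 81.3 and 47.6, and Foxp3 had 32.7, 20.9 and 15.3. Of the markers of other cells, 5 B cell genes summed to 15.9, 12.7 and 14.5, 6 myeloid genes to 251, 151 and 221, and 4 CD8 T and NK cell genes to 12.4, 18.7 and 14.3. Most of the myeloid sum was Lyz2 with 214, 134 and 184, S100a9 was at 0 in αA, and Adgre1 and Csf1r were highest in αA. Whether such cells have a part in the levels below was not tested. In such sorted bulk samples fewer cells of a type and less RNA per cell cannot be told apart.

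Together the 50 proteasome genes received 0.630%, 0.656% and 0.680% of all exon reads. They were among the highly expressed genes of these TFR cells. The median expressed gene had an RPKM of 15.3, 13.7 and 13.3, and 40, 41 and 42 of the 47 expressed members lay above it. The summed RPKM of the members was 3996, 4009 and 4386, of which the 20S core held 58.1%, 58.7% and 62.1% and the 19S particle 21.9%, 20.9% and 19.7%. Except for the constitutive catalytic subunits, the highest and the lowest member of each role lay at least 2.56-fold apart in each library, and the plot of RPKM by role shows every expressed member.

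**Figure D1:**
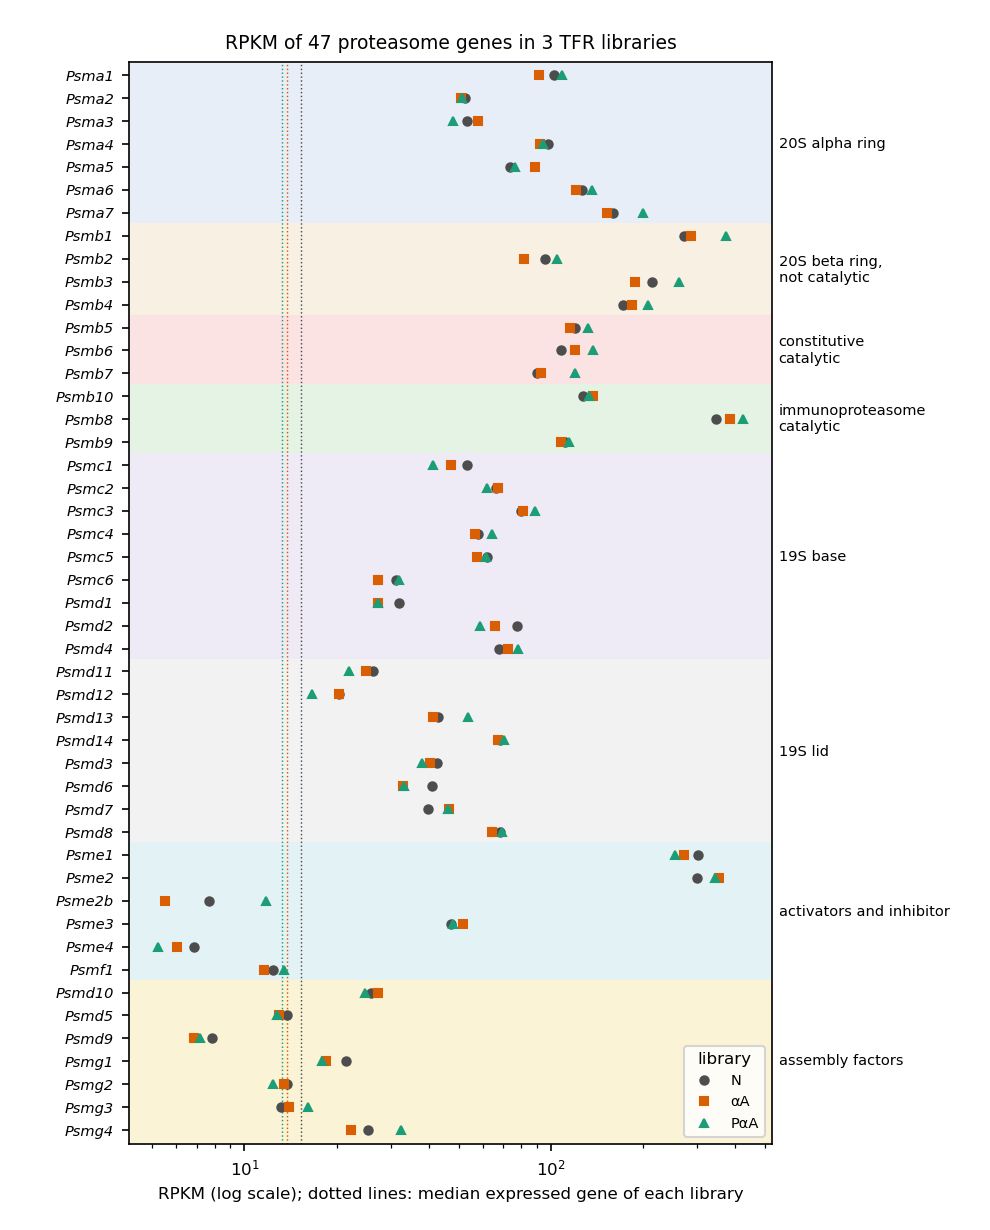
RPKM on a log scale of the 47 expressed proteasome genes, ordered by role, in the libraries N (circles), αA (squares) and PαA (triangles), 1 library per genotype. The dotted lines mark the median expressed gene at 15.3, 13.7 and 13.3. The 3 symbols of a gene lie close together for most genes, and the alpha and beta subunits lie to the right of the assembly factors and of most 19S subunits, with overlap.

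The 7 alpha subunits form the outer rings and the gate of the core. Psma7 was the highest of them in every library, at 160, 153 and 199 RPKM. The lowest was Psma2 in N at 52.5 and in αA at 51.0, and Psma3 in PαA at 48.0. In N the counting intervals of Psma2 and Psma3 overlapped, so the 2 could not be ordered there. Although each alpha subunit stands in the ring in equal number, their RPKM differed by 3.04-fold, 2.99-fold and 4.16-fold between the highest and the lowest. This order rests on the exon lengths used, 3673 bases for Psma2, 2870 for Psma3 and 914 for Psma7. By exon reads, which are not divided by length, Psma2 was the highest alpha subunit in each library. It had 5734, 5103 and 4791 reads, against 4337, 3798 and 4641 for Psma7.

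The beta subunits without an active site, Psmb1 to Psmb4, were higher, with medians of 193, 186 and 235. Psmb1 had an RPKM of 271, 287 and 372. Psmb2, the lowest of the 4, had 95.9, 82.1 and 105. Both were highest in PαA by RPKM.

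The 19S subunits were lower per length than the core. The base, a ring of ATPases and the large scaffold subunits, had a median of 61.9, 57.4 and 61.2, and the lid, which holds the deubiquitinase Psmd14, a median of 41.6, 40.7 and 42.2. In the base Psmc3, an ATPase, led with 80.1, 81.0 and 88.7. The lowest were Psmc6, also an ATPase, with 31.3, 27.2 and 32.0, and Psmd1, a scaffold, with 32.1, 27.3 and 27.3. In the lid Psmd14 was highest with 68.4, 67.2 and 70.5 and Psmd12 lowest with 20.4, 20.4 and 16.7. Psmd14 and Psmd8 could not be ordered in any of the 3 libraries, since their 95% counting intervals overlapped, from 66.1 to 70.9 and from 66.2 to 70.3 in N. Here and below such intervals cover counting error only, because PCR copies were not marked and no second library exists.

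Among the activators and the inhibitor the levels spread most. Psme1 and Psme2, the 2 subunits of the PA28 cap that is induced by interferon-γ, had an RPKM of 301 and 300 in N, 272 and 355 in αA, and 255 and 344 in PαA. Psme3, the nuclear PA28γ, had 47.1, 51.6 and 48.1, and the inhibitor Psmf1 (PI31) had 12.4, 11.6 and 13.4. Psme4, the PA200 cap, had 6.87, 6.03 and 5.22. Thus at most 3 core subunits lay above Psme1 or Psme2 in a library, while Psme4 was near the threshold of 5 in each library.

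Psme2b, a single-exon gene on another chromosome than Psme2, had 191, 126 and 250 reads, and none of them matched it alone. Of the reads of Psme2 only 32.9%, 35.6% and 32.7% were unique. How the authors' counting split reads between these 2 genes cannot be told from the files, so both are uncertain. The assembly factors were the lowest role on the whole, from Psmd9 with 7.81, 6.84 and 7.18 to Psmd10 with 26.0, 27.3 and 24.8 and Psmg4 with 25.4, 22.2 and 32.5.

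The exchangeable catalytic subunits were compared by their RNA levels. No protein was measured in these libraries, so the ratios do not give the share of cores built in either form. Psmb8 was the highest of all 50 members in every library, with an RPKM of 347 (342 to 352) in N, 383 (377 to 389) in αA and 424 (418 to 430) in PαA. The subunit whose position it takes, Psmb5, with the chymotrypsin-like activity, had 120, 115 and 133. By RPKM Psmb8 thus exceeded Psmb5 by 2.89-fold, 3.32-fold and 3.20-fold. This size rests on the exon lengths used, 1672 bases for Psmb8 and 899 for Psmb5. Reads over exon-exon junctions, which are not divided by length, were 4509, 4662 and 4775 for Psmb8. For Psmb5 they were 524, 505 and 560. Psmb8/Psmb5 was the only one of the 3 pairs in which, by RPKM, the immunoproteasome subunit was more than 2-fold above its partner.

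Psmb9 had an RPKM of 111, 108 and 115, against 108, 120 and 137 for Psmb6, the caspase-like subunit. The ratio Psmb9/Psmb6 was 1.03 (95% counting interval 0.983 to 1.08) in N, 0.901 (0.859 to 0.945) in αA and 0.836 (0.798 to 0.876) in PαA. By RPKM these 2 subunits were not distinguishable in N at this depth, and in αA and PαA Psmb9 was lower than Psmb6. This order rests on the exon lengths used, 1680 bases for Psmb9 and 798 for Psmb6, which the counting intervals do not cover. Reads over exon-exon junctions, which are not divided by length, were more for Psmb9 in each library, the other way from RPKM in αA and PαA. They were 2086, 1816 and 1719 for Psmb9 and 1026, 1017 and 1101 for Psmb6.

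Psmb10 had 127, 137 and 133, against 90.3, 93.1 and 120 for Psmb7, the trypsin-like subunit. The ratio Psmb10/Psmb7 was 1.41 (1.35 to 1.47), 1.47 (1.41 to 1.54) and 1.11 (1.06 to 1.16). Psmb10 was above Psmb7 in all 3 libraries, by the least in PαA. The immunoproteasome subunits were therefore not expressed at one level, since Psmb8 was 3.13, 3.54 and 3.70 times Psmb9 and 2.73, 2.80 and 3.18 times Psmb10.

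**Figure D2:**
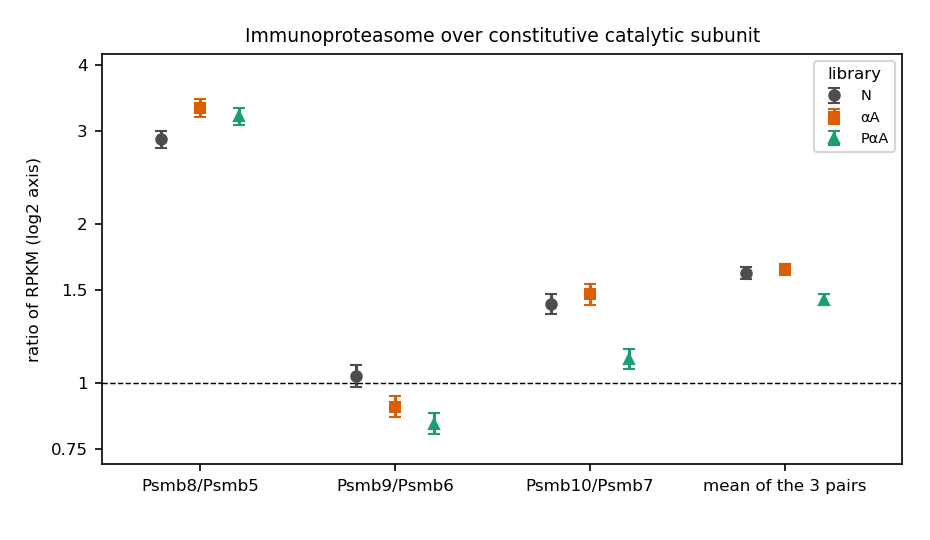
Ratio of RPKM between the immunoproteasome subunit and the constitutive subunit of the same position, and the geometric mean of the 3 pairs, on a log2 axis for N (circles), αA (squares) and PαA (triangles). Bars are 95% counting intervals of 1 library each. Psmb8/Psmb5 lies near 3 in every library, Psmb9/Psmb6 near 1, and Psmb10/Psmb7 is 1.11 in PαA against 1.41 and 1.47 in the other two.

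As a mean over the 3 pairs, the immunoproteasome to constitutive ratio was 1.61 in N, 1.64 in αA and 1.44 in PαA. Such a ratio is taken within a library and needs no scaling between libraries. Between αA and N the mean differed by a log2 of 0.02 (-0.03 to 0.08), within the counting error. The pairs moved in opposite directions there, Psmb8/Psmb5 by 0.20 (0.12 to 0.28) and Psmb9/Psmb6 by -0.19 (-0.29 to -0.10), with Psmb10/Psmb7 at 0.06 (-0.03 to 0.16). Relative to genes of like exon length the 3 were at 0.27, -0.12 and 0.08 and their mean at 0.07.

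In PαA the mean ratio was lower than in αA by a log2 of -0.19 (-0.24 to -0.14). Most of it lay in 1 pair. Psmb10/Psmb7 differed by -0.41 (-0.50 to -0.32), against -0.11 (-0.20 to -0.01) for Psmb9/Psmb6 and -0.06 (-0.13 to 0.02) for Psmb8/Psmb5. The lower value came with a higher Psmb7, at 93.1 in αA and 120 in PαA, while Psmb10 had 137 and 133. The members of the other two pairs differ in exon length, with 1672 bases in Psmb8 against 899 in Psmb5 and 1680 in Psmb9 against 798 in Psmb6. Relative to genes of like exon length Psmb8/Psmb5 was at 0.07, Psmb9/Psmb6 at 0.04 and Psmb10/Psmb7 at -0.38, and the mean was -0.092. The mean was -0.26 from reads over exon-exon junctions and -0.082 without the Psmb10/Psmb7 pair.

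Psmb7 has limits of its own as a measure. Between 72.3% and 75.2% of its reads were unique, and on the opposite strand it overlaps Nek6, a kinase gene, by 405 exon bases in the GENCODE annotation, while the kit did not keep the strand. Nek6 had 151, 106 and 338 reads in N, αA and PαA, against 3115, 2941 and 3547 for Psmb7. The unique reads alone gave a Psmb10/Psmb7 difference of -0.46 and the junction reads -0.48. Whether either feature has a part in the level of Psmb7 was not tested.

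The genes of 2 immunoproteasome subunits, Psmb9 and Psmb8, lie in the MHC region of chromosome 17 (GRCm38, 34181988 to 34187764 and 34197721 to 34201454) with Tap1 between them. Tap1 and Tap2, which together form the peptide transporter of class I presentation, are their neighbours. Tap1 had an RPKM of 154, 147 and 123, and Tap2 had 107, 91.8 and 70.5. By RPKM both transporter genes were lowest in PαA, where Psmb8 was highest. Psmb9 and Tap1 stand head to head on opposite strands and share 212 exon bases in the annotation, so their reads there cannot be assigned by strand.

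Stretches of 30 bases near the RefSeq start sites (GRCm38.p6) are given for 4 of the catalytic genes, to show the pattern each shares with a known class of regulatory element. Capitals mark the pattern TGANNNNGC, the core of the antioxidant response element bound by NRF1 and NRF2, in Psmb5, Psmb6 and Psmb9, and TTCNNNGAA, a STAT site, in Psmb8.
Psmb5, chr14:54618023-54618052, minus strand: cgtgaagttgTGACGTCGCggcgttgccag
Psmb6, chr11:70525338-70525367, plus strand: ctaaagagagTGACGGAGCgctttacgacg
Psmb9, chr17:34187371-34187400, minus strand: ccttgcgcgaTGATGGGGCggggcctcagt
Psmb8, chr17:34198088-34198117, plus strand: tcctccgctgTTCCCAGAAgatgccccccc

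The patterns began 47, 9, 60 and 97 bases before the RefSeq start in Psmb5, Psmb6, Psmb9 and Psmb8. In GENCODE the stretches of Psmb9 and Psmb8 lie in the 5′ untranslated exon of a longer transcript, that of Psmb5 overlaps no annotated gene, and that of Psmb6 overlaps its first exon by 1 base. Windows from 250 bases before to 50 after the start were used for 41 of the 49 proteasome genes, Psmc3ip left out. Windows on chromosome 18, where Psma8 and Psmg2 lie, were left out for members and for all genes. On either strand, TGANNNNGC was in 56.1% of these genes against 45.0% of all 27025 genes with a window, AANNGAAA (an IRF core) in 31.7% against 26.7%, and AGNGAAAG (a Blimp-1 consensus) in 12.2% against 9.91%. CCAAT (the NF-Y box) was in 34.1% against 41.1%, TTCNNNGAA in 7.32% against 9.55%, and GGAAA (an NFAT core, which can overlap the IRF and Blimp-1 patterns) in 56.1% against 64.4%. The printed stretches are a selection. The window of Psmb8 also held TGANNNNGC, that of Psmb6 also held AANNGAAA, that of Psmb10 held none of these patterns, and Psmb7 had no window. These short patterns occur in many promoters, and a match describes the letters only.

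For comparisons between libraries, each log2 ratio of RPKM was taken relative to the median expressed gene, which had a log2 ratio of -0.14 in αA against N and -0.06 in PαA against αA. A member was counted as higher or lower when this value passed 0.32 or -0.32, which is a level 25% above or 20% below that of the median gene. Across all 3 libraries the proteasome genes varied little. The highest library exceeded the lowest by a median of 1.20-fold over the 47 members, against 1.33-fold over all 7017 expressed genes. It did so by more than 25% in 19 of the 47 members (40.4%), against 62.8% of all expressed genes, and by more than 1.5-fold in 4 members (8.51%), against 30.6%.

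Those 4 were Psme2b at 2.20-fold, Psmb1 at 1.56-fold, and Psmb7 and Psmg4 at 1.52-fold each. Higher genes have smaller counting errors, so the same shares were taken among genes above an RPKM of 30 in at least 1 library. Of the 36 members among them, 17 (47.2%) varied by more than 25% and 3 (8.33%) by more than 1.5-fold, against 57.8% and 25.4% of the 2139 genes above that level. Psme1 varied least of all members by this measure, with 1.03-fold. On the plain RPKM scale 16 members were highest in N, 8 in αA and 23 in PαA.

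Between αA and N, 3 of the 47 proteasome genes passed the threshold upward, Psma5, Psme2 and Psmd7, and 1 passed it downward, Psme2b. Of all expressed genes 13.7% were higher and 17.1% lower by this measure. The members' median was 0.08 above the median gene on the log2 scale, and it was -0.058 on plain RPKM and -0.090 on TPM, where the median of all expressed genes itself was at -0.14 and -0.17. No member passed the 2-fold threshold of the study on RPKM, which 4.25% of expressed genes did.

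Psma5, an alpha subunit, was at 73.6, 89.0 and 76.5 RPKM, and its log2 ratio in αA against N was 0.41 (0.34 to 0.48). It was highest in αA, and relative to the median gene PαA lay above N by 0.25 (0.17 to 0.32). Relative to genes of like exon length Psma5 in PαA against N was at -0.03. Psmd7, a lid subunit that pairs with Psmd14, had 39.7, 46.6 and 46.3, with a ratio of 0.36 (0.27 to 0.46). Psmd7 was thus lower in N than in both libraries that carry the active NFATc1 allele by label.

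Psme2 had a ratio of 0.38 (0.34 to 0.42), and its partner Psme1 a ratio of -0.01 (-0.05 to 0.03). The 2 PA28 genes did not move together. The ratio Psme1/Psme2 went from 1.00 in N to 0.765 in αA and 0.742 in PαA. Only a part of the Psme2 reads is unique, and on unique reads alone Psme2 was at 0.50 and Psme1 at -0.01, on junction reads at 0.41 and -0.03.

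At the other end were Psme2b at -0.34 (-0.67 to -0.01), Psmd6, a lid subunit with RPKM of 40.9, 32.8 and 33.2, at -0.18 (-0.29 to -0.07), and Psmc3ip, with RPKM of 2.77, 1.68 and 2.17, at -0.59 (-1.06 to -0.13). Psmd6 was thus highest in N. By role, the medians were 0.24 for the immunoproteasome subunits, 0.18 for the constitutive catalytic subunits, 0.08 for the other beta subunits, 0.07 for the alpha ring and for the lid, 0.03 for the base, 0.05 for the assembly factors and 0.01 for the activators and the inhibitor. All 6 catalytic subunits were above the median gene, by between 0.08 (Psmb5) and 0.29 (Psmb6), with 0 past the threshold. Relative to genes of like exon length Psmb5 was at -0.06 and the other 5 were above 0.

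Between PαA and αA, 8 of the 47 proteasome genes were higher by the same threshold and 0 were lower, against 18.2% and 19% of all expressed genes. The 8 were Psma7, Psmb1, Psmb2, Psmb3 and Psmb7 of the core, Psmd13 of the lid, Psme2b and Psmg4. On TPM, where the median of all expressed genes moves by -0.23 between these libraries, 2 were higher, Psme2b and Psmg4, and 7 lower, Psma3, Psma5, Psmc1, Psmd2, Psmd11, Psmd12 and Psme4. Only Psme2b passed the 2-fold threshold on RPKM, which 4.63% of expressed genes did. The members' median was 0.13, and it was -0.094 on TPM.

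Psmb3, a beta subunit without an active site, was at 214, 188 and 262 RPKM, which gave it 0.54 (0.48 to 0.60) on the log2 scale. Only 43.0%, 46.1% and 44.7% of its reads were unique, which the counting interval does not cover. Psmb1, with 271, 287 and 372, had a ratio of 0.44 (0.39 to 0.48). The other beta subunits of this kind were Psmb2 with a ratio of 0.41 (0.32 to 0.50) and Psmb4 with 0.23 (0.18 to 0.28). All 4 lay above the median gene in PαA against αA, and their median of 0.42 was the highest of the roles. On TPM Psmb1, Psmb2 and Psmb3 were above 0, at 0.210, 0.184 and 0.316, but short of the threshold. Psmb4 at 0.0029 was within the counting error.

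The small assembly factor Psmg4 had 419, 336 and 459 reads and a ratio of 0.61 (0.40 to 0.82), and Psme2b a ratio of 1.15 (0.83 to 1.47) with no unique reads. Psmd13, a lid subunit, had an RPKM of 42.8, 41.1 and 53.5 and a ratio of 0.44 (0.37 to 0.51). It shares 342 exon bases on the opposite strand with Sirt3, which had 75, 74 and 64 reads. Psmd13 was the only one of the 17 subunits of the 19S particle past the threshold.

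The lowest ratios belonged to Psmd12, a lid subunit, at -0.23 (-0.34 to -0.11), to Psma3 at -0.21 (-0.27 to -0.14) and to Psma5 at -0.16 (-0.23 to -0.08). Psma3 had an RPKM of 53.3, 57.8 and 48.0 and was, with Psma5, the only core subunit below the median gene in PαA against αA. The constitutive catalytic subunits had a median of 0.26 and the immunoproteasome subunits 0.14. Psmb8 was higher by 0.21 (0.18 to 0.24) and Psmb9 by 0.14 (0.09 to 0.20), while Psmb10 was at 0.02 (-0.04 to 0.08). On TPM without centring the 3 were at -0.02, -0.08 and -0.21, with the median gene at -0.23.

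**Figure D3:**
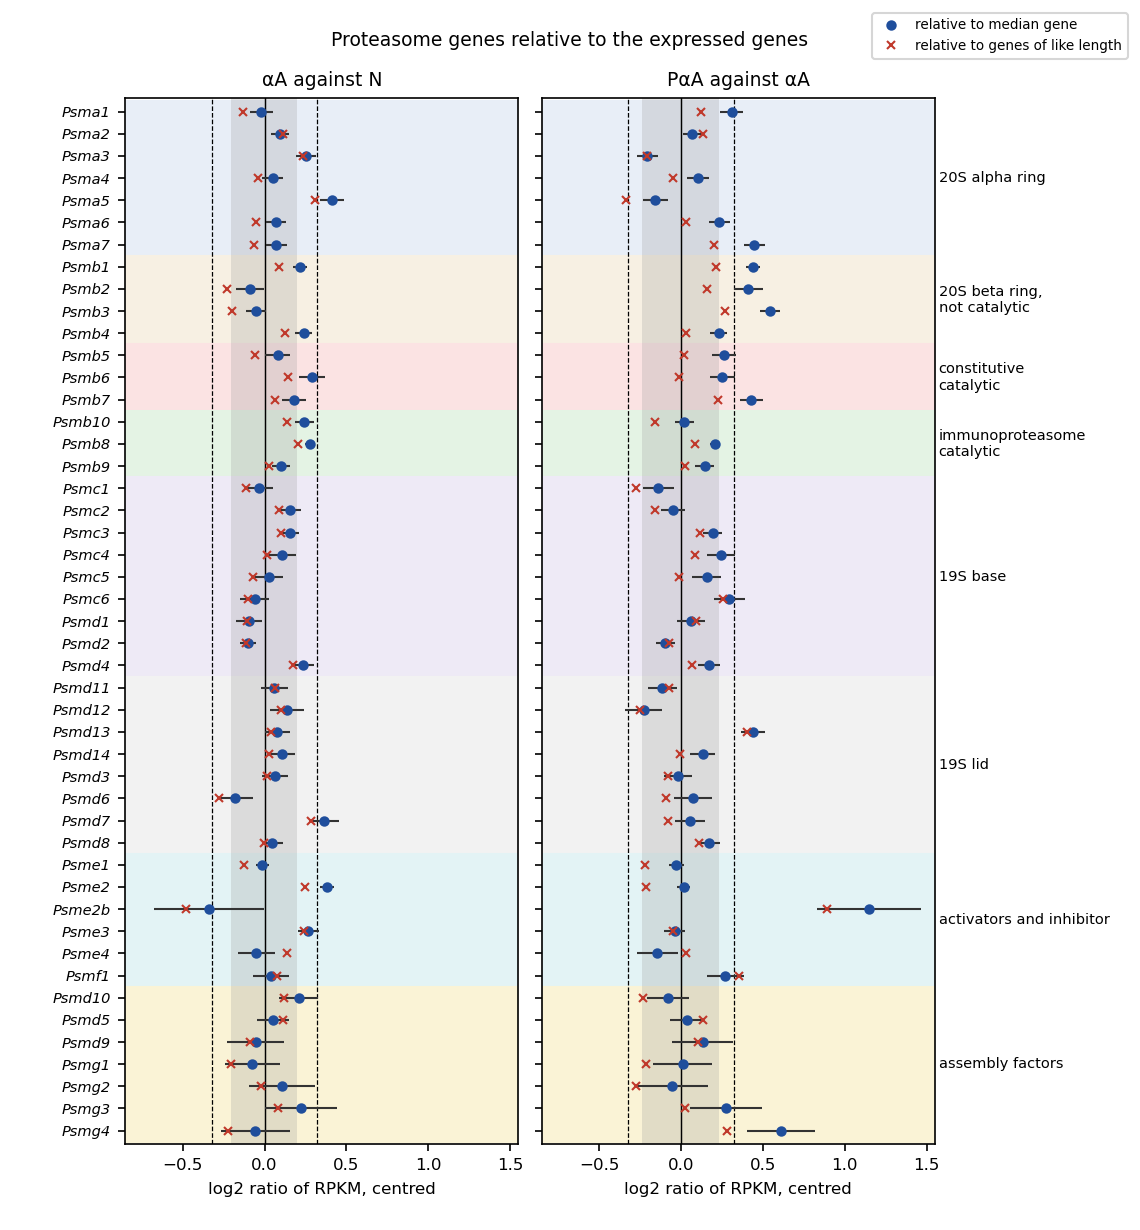
Log2 ratio of RPKM for the 47 expressed proteasome genes in αA against N (left) and PαA against αA (right), relative to the median expressed gene (circles, with 95% counting intervals) and relative to genes of like exon length (crosses, without intervals). Grey bands run from the lower to the upper quartile of all expressed genes and dashed lines mark the thresholds of 0.32 and -0.32. In αA against N 3 circles lie above and 1 below the dashed lines, in PαA against αA 8 lie above, and most crosses lie left of their circles.

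The ratios varied with exon length over all expressed genes in both comparisons, and over the proteasome genes in PαA against αA. In PαA against αA the expressed genes with less than 1500 exon bases had a median of 0.23 and the others -0.04, and in αA against N 0.12 and -0.02. The correlation between log exon length and log2 ratio was -0.30 over the expressed genes and -0.52 over the 47 members in PαA against αA, and -0.23 and -0.06 in αA against N. These are correlations across genes of the same libraries and are given as a description.

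The core subunits are encoded by shorter transcripts than the 19S subunits, with median exon lengths of 1183 and 2060 bases. Relative to the median gene the 17 core subunits had a median of 0.23 and the 17 subunits of the 19S particle one of 0.08 in PαA against αA. Relative to genes of like exon length these medians were 0.03 and -0.01, so that the difference between core and 19S particle was no longer seen. The noncatalytic beta subunits still had 0.18, the constitutive catalytic subunits 0.02 and the immunoproteasome subunits 0.02.

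By this second measure 3 members were higher in PαA than in αA, Psmd13 at 0.40, Psme2b at 0.89 and Psmf1 at 0.35, and 1 was lower, Psma5 at -0.33, against 16.2% and 16.6% of all expressed genes. Psmd13 and Psme2b were past the threshold by both measures. In αA against N none of the members was higher and 1 was lower, Psme2b at -0.48, against 13% and 14.9% of all. Psma5 was then at 0.31, Psme2 at 0.25 and Psmd7 at 0.28. Psmb7 had 0.23 in PαA against αA by this measure and Psmb10 had -0.16, and with exon lengths of 1160 and 1311 bases this pair is alike in length. Ribosomal protein genes, which are short, took 12.6%, 14.2% and 18.2% of the exon reads in N, αA and PαA, and their part in the dependence on length was not tested.

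**Figure D4:**
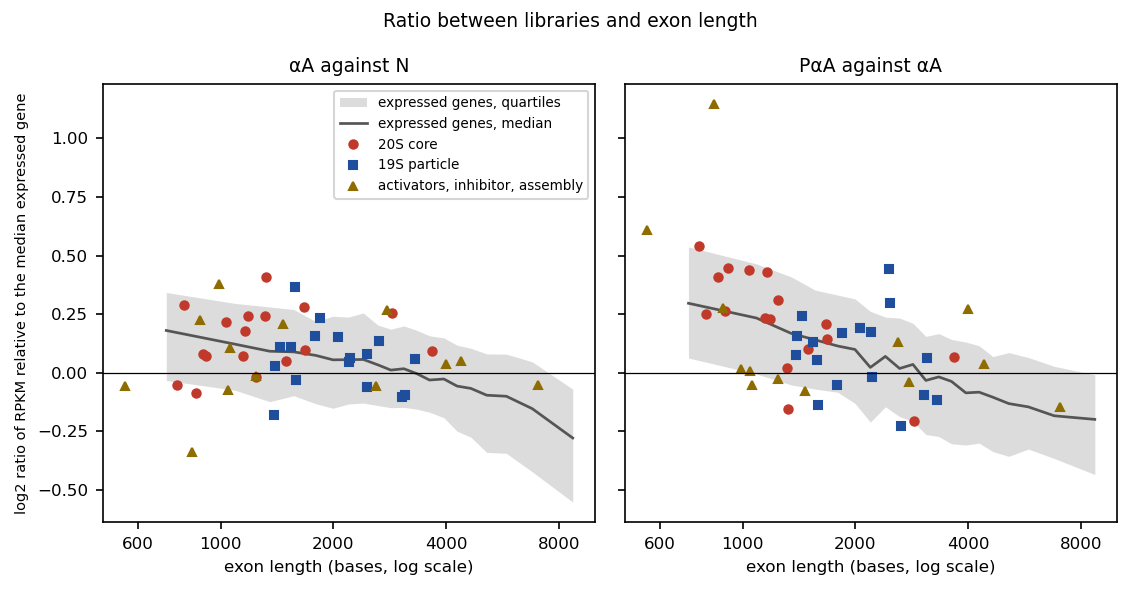
Log2 ratio of RPKM relative to the median expressed gene against exon length on a log scale, for αA against N (left) and PαA against αA (right). The line and band are the median and quartiles of all expressed genes in 20 bins of length, and symbols are the proteasome genes of the core (circles), the 19S particle (squares) and the remaining roles (triangles). The band slopes down with length in both panels, and in PαA against αA the core subunits lie mostly at short lengths and high ratios.

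Genes that work with the proteasome without carrying its name were taken from a list of 22 symbols, older names included, of which 19 were found in the files and 17 were expressed. They include receptors, deubiquitinases, shuttling factors and the transcription factors of the subunit genes. In αA against N 0 were higher and 1 was lower, the ubiquitin ligase Ube3c at -0.39, against 13.7% and 17.1% of all expressed genes. In PαA against αA 2 were higher, the deubiquitinase Uchl5 at 0.51 and the thioredoxin-like Txnl1 at 0.48, both of which bind the 19S particle, against 18.2% of all, and 3 were lower, against 19%. The 3 lower ones were AI314180 (Ecpas), a scaffold of the 26S proteasome, at -0.45, Nfe2l1 at -0.35 and the shuttling factor Ubqln4 at -0.32. Relative to genes of like exon length these 3 were at -0.24, -0.23 and -0.28 and Ube3c at -0.23, all short of the threshold, while Uchl5 was at 0.43 and Txnl1 at 0.45. Nfe2l1 encodes NRF1, the factor that drives proteasome genes when the proteasome is inhibited, and had an RPKM of 18.2, 13.7 and 10.2.

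Of 7 genes of class I processing and its regulators, 0 were higher and 1 lower in αA against N, against 13.7% and 17.1% of all expressed genes. In PαA against αA 0 were higher and 1 lower, against 18.2% and 19% of all. The one in αA against N was Nlrc5, the transactivator of class I genes, with an RPKM of 10.9, 5.60 and 4.45 and a ratio of -0.82. The one in PαA against αA was Tapbp, which holds class I to the peptide transporter, at -0.51. The list had a median of 0.07 and -0.26 in the 2 comparisons, while the immunoproteasome subunits had 0.24 and 0.14. Relative to genes of like exon length Nlrc5 was at -0.59 and Tapbp at -0.50.

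Of 3 genes of ubiquitin and its activating enzyme, 1 was higher in PαA than in αA, against 18.2% of all expressed genes. It was Rps27a, which encodes ubiquitin fused to a ribosomal protein, at 0.56. Of its 36282, 34396 and 45363 reads only 123, 132 and 177 were unique, so its level is uncertain. Relative to genes of like exon length Rps27a was at 0.31, short of the threshold. The polyubiquitin gene Ubb and the enzyme Uba1 did not pass the threshold in either comparison.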

How the data were processed

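Poly(A) RNA of 3 sorted TFR samples, 1 per genotype, was made into libraries with a kit that keeps no strand (NEBNext Ultra II), amplified by PCR and sequenced as single reads. Trimming, alignment to GRCm38 and counting per gene were done by the authors with CLC Genomics Workbench at its default settings, per the paper's methods. The annotation release is not given in the sources used here. The authors deposited whole-number counts of total, unique, junction and intron reads per gene, which are not normalized, and RPKM and TPM with decimal commas. Reads matching several places are in the total counts.

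The members and lists were chosen with earlier results of these data known. Of the 25759 genes 22044 had an exon length above 0. Ratios are of RPKM, less the median log2 ratio of the genes above an RPKM of 5 in at least 1 library. Their 95% intervals are exact Clopper-Pearson intervals on the reads of the 2 libraries, those of single RPKM are Poisson intervals, and those of ratios between pairs come from the 4 counts by a normal approximation. Ratios relative to exon length subtract a lowess fit (fraction 0.3). No test and no p-value was possible with 1 library per genotype. Always named were the 6 catalytic subunits, Psme1, Psme2 and members under the threshold. Also named were the 3 largest and 3 smallest ratios of each comparison with at least 100 reads, and the extremes of each role. Others named passed the threshold of 25%, were partners of a named gene or were chosen after their values were seen. The shares above an RPKM of 30 were added once the data had been examined. As alternatives, unique or junction reads, members with at least 80% unique reads, TPM, TMM factors of edgeR 4.0.16, median-of-ratios size factors, other thresholds and a pseudocount of 1 were tried. The scripts were tested on simulated data. A few genes of the lists that are no members were left out and are not reported here. Promoter windows came from RefSeq and gene overlaps from GENCODE M21, both on GRCm38. Python 3.11.15 and R 4.3.3 were used.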

Additional observations from a re-analysis of the deposited data

How the results depend on the processing

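The members' median in αA against N was -0.058 on RPKM and -0.090 on TPM without centring, and in PαA against αA it was -0.094 on TPM and 0.025 relative to genes of like exon length. In αA against N the count of members higher than the median gene by over 25% became 7 with junction reads and 0 with RPKM or TPM without centring, relative to exon length or at 1.5-fold. The count lower became 2 with TPM and 0 with unique reads, members of at least 80% unique reads, TMM factors, size factors, a pseudocount of 1 or at 1.5-fold. In PαA against αA the count higher became 5 with members of at least 80% unique reads, 2 with TPM, 3 relative to exon length and 2 at 1.5-fold, and the count lower became 1 with junction reads, 7 with TPM and 1 relative to exon length. The difference of the immunoproteasome to constitutive ratio in PαA against αA was -0.26 with junction reads, -0.082 without the Psmb10/Psmb7 pair and, in a setting chosen after seeing the data, -0.092 relative to exon length. Fewer members explain the counts with at least 80% unique reads, and in the other settings the cause was not tested. For 1016 ratios of single members under these alternatives, the shift was compared with the distance from the middle to an end of the counting interval. Of them 776 moved no further than this and 240 further, and 0 of those past the threshold changed direction. The 776 include the setting with at least 80% unique reads, which leaves such a ratio unchanged. No library could be left out and no paired analysis was possible because there is 1 library per genotype and the replicate numbers come from the order of the samples. Each of the 47 expressed members had 126 reads or more in each library, and the spread between mice is unknown.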
